A study of Mus musculus with 4 samples.

Results

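Oxidative phosphorylation genes encode the proteins of the mitochondrial inner membrane that carry electrons to oxygen and make ATP. The members described here are the entries whose gene symbol names a nuclear-encoded subunit of complexes I to V or cytochrome c: 86 of the 26815 entries of the table, 1 entry per symbol. The rule reads the symbol alone and uses no measured value. By complex, 36 belong to complex I, 4 to complex II, 9 to complex III, 19 to complex IV and 15 to complex V. Cytochrome c, the carrier between complexes III and IV, adds Cycs. Ndufa4, first named as a complex I protein, was counted with complex IV, to which it is now assigned. Atp5s and Atp5sl carry the family name but are not subunits of the enzyme and were kept apart. The cells were CD-1 mouse cortical stem cells of stage E14.5, bought commercially and cultured on a coated surface with the growth factors EGF and bFGF. They carried a lentivirus with either a scrambled control shRNA (SHC002) or 1 shRNA that targets Foxp1, a forkhead transcription factor (pLKO.1_sh_ex15), and both groups were selected with puromycin at 0.5 µg/mL. Each group had 2 libraries from different passages, so what separates the groups was carried by 1 hairpin per group and 4 libraries in all. Whether the passages of a group stem from separate transductions was not established here. The spread that the authors' p-values measure is therefore not known.

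The values are 1 comparison per gene between a condition coded q2 and one coded q1. Nothing in the labels or the headers says which shRNA is q1 or q2, so each direction is given as q2 against q1. Foxp1 itself had a log2 fold change of -2.03 ± 0.51 by the authors' deposited table (Cuffdiff q = 0.00162). Values per library or per condition were not used here, and read depth is unknown. The error printed after ± is the standard error implied by the authors' own figures, the fold change divided by their test statistic. The authors' p-values are smaller than a normal distribution of that statistic would give, so this error is wide relative to their test. Of the cell type markers listed, 8 of 8 genes of neural stem cells and radial glia were tested, with 1 called lower and 1 higher. Of 4 markers each, 2 were tested for neurons, 1 for microglia and 2 for endothelium and pericytes, and 0 of the tested ones were called. Of the astrocyte markers, 3 of 4 tested were called lower in q2. Of 4 tested oligodendrocyte lineage markers 2 were called lower and 1 higher, and of 2 tested fibroblast markers 1 was called higher. Over all tested entries 3.39% were called lower and 4.24% higher, and each marker list is short. The part of these cell types in the results below was not tested. In bulk RNA, fewer cells of a type and less RNA per cell cannot be told apart.

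In oxidative phosphorylation, complex I takes electrons from NADH and complex II from succinate, complex III passes them on through cytochrome c, and complex IV gives them to oxygen. Complexes I, III and IV pump protons, and complex V, the ATP synthase, uses the gradient to make ATP. Neural stem cells are known for a metabolism with much glycolysis, and the use of oxidative phosphorylation is known to grow as they differentiate.

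The members lay slightly low in q2 as a set, with few calls among them. Of the 86, 81 were tested by the authors, and 69 of these had a negative log2 fold change, or 85.2%, against 54.3% of the 15315 tested entries. The median of the 81 was -0.25 (1.19-fold lower in q2) beside -0.05 over the tested entries, by the authors' deposited table. The lower and upper quartiles were -0.37 and -0.11 for the members and -0.35 and 0.28 for the tested entries, by the authors' deposited table. At a Cuffdiff q under 0.05, 2 members were called lower, 1 higher and 78 not. That is 3.70% of the members, against a background of 7.63% of the tested entries in either direction, 3.39% called lower and 4.24% called higher. At an unadjusted p under 0.05, 10 members lay lower and 1 higher, which is 13.6% of the members against 19.2% of the tested entries; lower entries made up 9.74% of the tested entries. The share of members called was below the background, while the share with a negative value was above it. Short genes had fewer calls in general. Among tested genes with a known transcript length, 6.36% were called in the shortest decile, which held 46 of the members, and 14.6% in the longest. The part of length in the members' share of calls was not tested.

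Most single shifts were small next to their error, as they were among the tested entries at large. Implied errors of the members had a median of 0.32, and 72 of the 81 lay between 0.3 and 0.4. A log2 fold change within 1 error of zero was found for 55 of the 81 members. The same held for 10003 of the 15197 tested entries with a finite fold change, a like share. Within the set, 71 of 81 lay within 1 implied error of the members' own median and 80 within 2, the exception being Cox6b2.

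**Figure D1:**
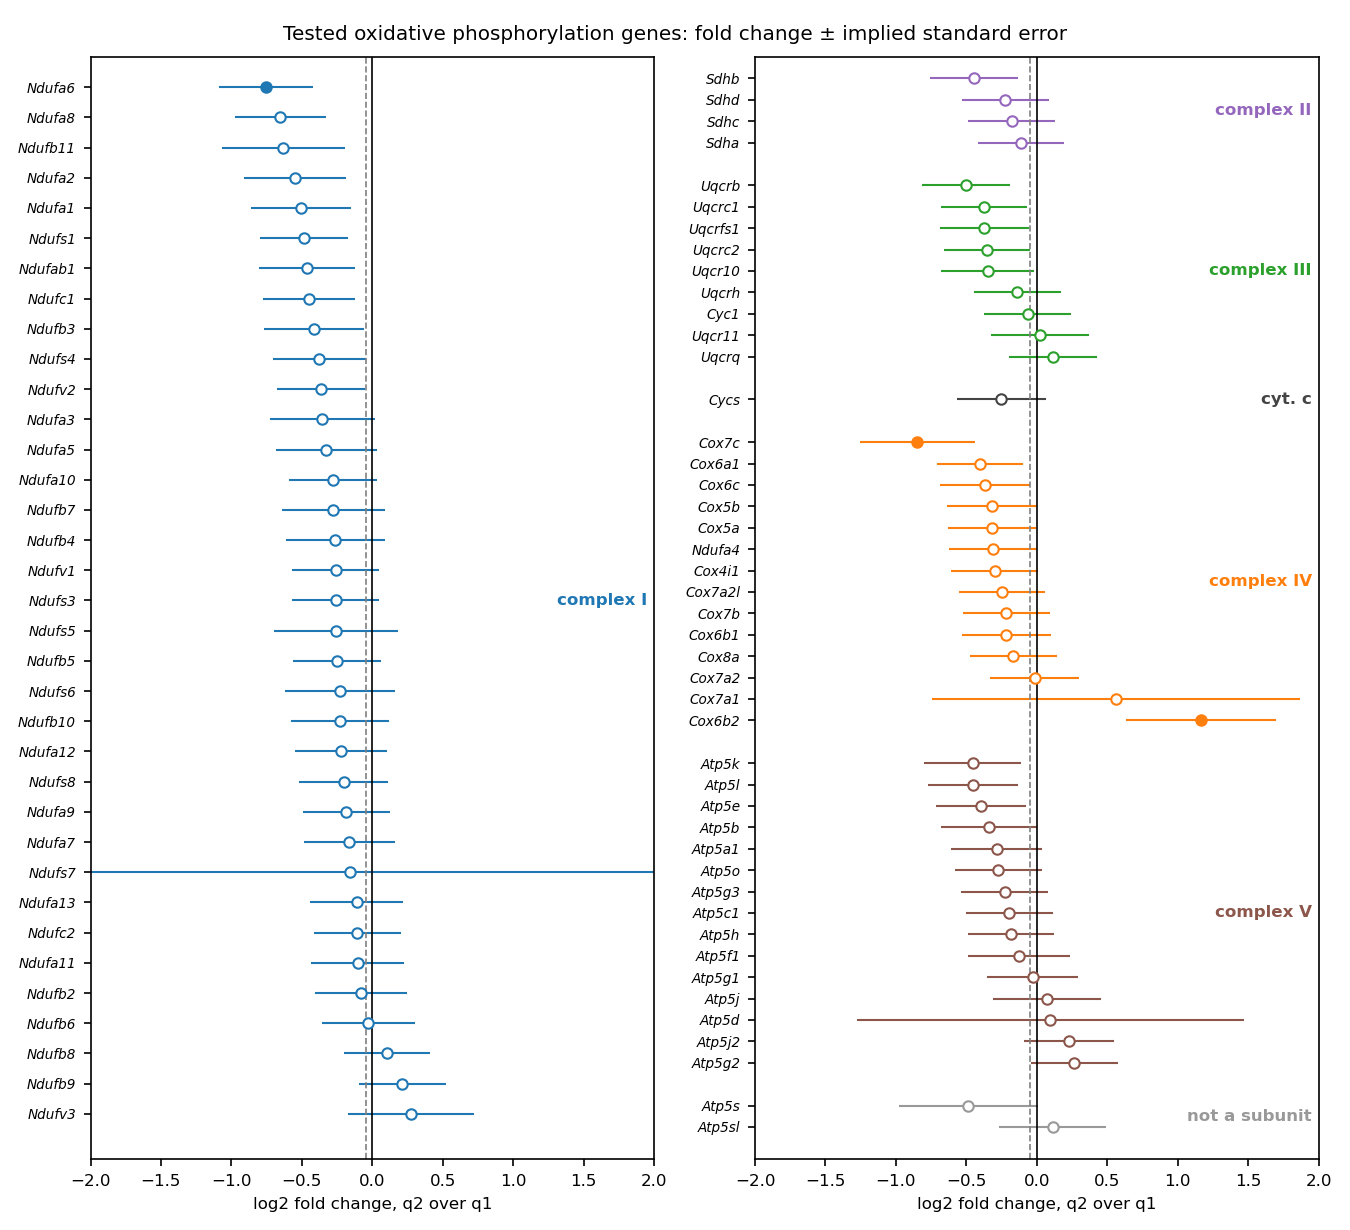
Members' log2 fold changes, q2 against q1, from the authors' deposited table (x axis); rows on the y axis are 80 of the 81 tested members by complex, bars are ± 1 implied standard error, filled points were called at a Cuffdiff q under 0.05, the solid line is 0 and the dashed line the median of the tested entries, -0.05. Ndufa6, Cox7c and Cox6b2 are filled; the bar of Ndufs7 runs off both sides of the axis because its error is 3.74.

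The members called were Ndufa6, Cox7c and Cox6b2. Ndufa6, an accessory subunit of complex I from the LYR motif family, had a log2 fold change of -0.75 ± 0.33 by the authors' deposited table, 1.68-fold lower in q2 (Cuffdiff q = 0.0219). Cox7c, one of the small subunits of cytochrome c oxidase, stood at -0.85 ± 0.41 by the authors' deposited table, 1.80-fold lower (Cuffdiff q = 0.0478). Cox6b2, the testis isoform of a subunit on the intermembrane side of that enzyme, stood at 1.17 ± 0.53 by the authors' deposited table, 2.24-fold higher (Cuffdiff q = 0.0379). The nearest member outside the threshold was Ndufa8, a complex I subunit of the intermembrane space, at -0.65 ± 0.32 by the authors' deposited table (Cuffdiff q = 0.0548). The 3 calls had q-values from 0.0219 to 0.0478, and 0 members passed a Cuffdiff q under 0.01, against 11 at an unadjusted p under 0.05. After removal of the GC trend described below, Ndufa6 stayed called, while Cox7c at -0.69 and Cox6b2 at 1.00 had a Benjamini-Hochberg q of 0.162 and 0.105. Ndufa8 and Cox6a1 became called there at -0.78 and -0.67, with q of 0.0200 and 0.0414. With a length trend removed as well, Ndufa8 at -0.73 and Cox6b2 at 1.15 were called, with q of 0.0355 and 0.0453, and Ndufa6 and Cox6a1 were not, with q of 0.0798 and 0.117. Cox7c lies among 37 members whose coding sequence has a near-identical copy in the transcripts of another annotated gene, 5 such genes in its case, so its reads may be shared with them.

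The promoters of these 4 genes are shown because the first 3 carry the calls and the other lies next to the threshold. The 250 bases before each RefSeq start site (GRCm38.p6, minus strand in each, printed 5′ to 3′) are given with matches to 6 short motifs in capitals. The motifs, searched on both strands in the first window listed for a gene, were NRF1 (GCGCA and GCGC with any 1 base between), ETS (CCGGAAG), YY1 (AAGATGG), SP1 (GGGCGG), NF-Y (CCAAT) and forkhead (TGTTTAC).

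Ndufa6, chr15:82354292-82354541: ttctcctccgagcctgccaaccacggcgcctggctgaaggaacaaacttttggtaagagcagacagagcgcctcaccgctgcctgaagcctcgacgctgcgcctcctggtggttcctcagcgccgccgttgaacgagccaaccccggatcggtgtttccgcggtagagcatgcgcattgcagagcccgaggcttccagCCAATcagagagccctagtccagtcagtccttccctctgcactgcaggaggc
Cox7c, chr13:86046796-86047045: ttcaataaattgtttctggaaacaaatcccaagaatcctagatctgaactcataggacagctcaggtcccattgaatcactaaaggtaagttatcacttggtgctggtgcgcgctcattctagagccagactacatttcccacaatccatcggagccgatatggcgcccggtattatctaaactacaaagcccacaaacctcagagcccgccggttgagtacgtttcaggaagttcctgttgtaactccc
Cox6b2, chr7:4753095-4753344: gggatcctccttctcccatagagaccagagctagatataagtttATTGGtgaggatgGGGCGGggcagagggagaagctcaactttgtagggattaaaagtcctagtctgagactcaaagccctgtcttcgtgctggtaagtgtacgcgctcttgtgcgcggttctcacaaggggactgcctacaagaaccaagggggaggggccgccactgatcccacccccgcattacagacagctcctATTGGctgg
Ndufa8, chr2:36049339-36049588: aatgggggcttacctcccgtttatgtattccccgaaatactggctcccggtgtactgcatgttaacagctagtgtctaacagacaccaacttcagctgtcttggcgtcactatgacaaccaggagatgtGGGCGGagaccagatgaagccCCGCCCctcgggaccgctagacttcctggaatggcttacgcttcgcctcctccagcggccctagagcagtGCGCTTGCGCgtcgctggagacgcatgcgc

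In these stretches Ndufa6 held 1 NF-Y match, and Cox7c held 0 matches to any of the 6 motifs. Cox6b2 held 1 SP1 and 2 NF-Y matches, and Ndufa8 held 1 NRF1 and 2 SP1 matches. The forkhead letters were in 0 of the 4. The windows of 300 bases counted further below run 50 bases past the start site and held further matches. Ndufa6 had 1 NRF1 and 1 SP1 match there, and Cox7c had 1 YY1 match. The full window of Cox6b2 held 3 NF-Y matches.

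Complex I, the NADH dehydrogenase, had a median log2 fold change of -0.26 over 36 tested members, 33 of them negative, by the authors' deposited table. Of the 36, 1 was called lower and 0 higher, and 6 lay lower at an unadjusted p under 0.05. The 7 nuclear core subunits, which hold the flavin and the iron-sulfur clusters, were all negative and none was called, from Ndufs1 at -0.49 to Ndufs7 at -0.16 by the authors' deposited table. Ndufs1, the largest subunit of the electron-input part, was at -0.49 ± 0.31 by the authors' deposited table (Cuffdiff p = 0.0273, Cuffdiff q = 0.182), with a span shared with 1 other named entry. Ndufv2, Ndufv1 and Ndufs3 lay at -0.37, -0.26 and -0.26 and Ndufs8 at -0.20 by the authors' deposited table. These core subunits differed from each other by less than their errors.

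The 29 accessory subunits of complex I, which surround the core and serve its assembly and stability, had a median of -0.26 by the authors' deposited table, next to -0.26 for the core. After Ndufa6 and Ndufa8 the lowest were Ndufb11, a membrane arm subunit, at -0.63 ± 0.44 and Ndufa2 at -0.55 ± 0.36, then Ndufa1 at -0.51 ± 0.35 by the authors' deposited table. Their Cuffdiff q-values were 0.236, 0.202 and 0.229. Ndufb11 and Ndufa2 each shared their span with 1 other named entry. Near-identical copies lay in 5 other annotated genes for Ndufa1 and in 1 for Ndufb11. Ndufab1, the mitochondrial acyl carrier protein that is also a complex I subunit, was at -0.46 ± 0.34 by the authors' deposited table (Cuffdiff q = 0.279). On the other side, 3 accessory subunits were positive, with Ndufv3 at 0.28 ± 0.45, Ndufb9 at 0.21 ± 0.31 and Ndufb8 at 0.10 ± 0.31 by the authors' deposited table, each within 1 error of zero. By name, 12 of 12 Ndufa genes and 8 of 8 Ndufs genes were negative, against 8 of 10 Ndufb genes by the authors' deposited table. The highest of the Ndufa genes, Ndufa11, lay at -0.11, and the remaining members of complex I lay between the values named.

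Complex II, succinate dehydrogenase, belongs to both the respiratory chain and the citric acid cycle. Its 4 genes were all negative, with a median of -0.20, and 0 were called by Cuffdiff, while 1 of 4 had an unadjusted p under 0.05. Sdhb, the iron-sulfur subunit, was lowest at -0.45 ± 0.31 by the authors' deposited table (p = 0.0419, Cuffdiff q = 0.234). The membrane anchors Sdhd and Sdhc lay at -0.22 ± 0.31 and -0.18 ± 0.31, and Sdha, the flavoprotein with the succinate site, at -0.11 ± 0.31, by the authors' deposited table. The difference between Sdhb and Sdha, partners in the catalytic head, was smaller than their combined error.

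Complex III, the cytochrome bc1 complex, had a median of -0.35 over 9 tested genes, 7 of them negative, by the authors' deposited table. None of the 9 was called by Cuffdiff, and 1 had an unadjusted p under 0.05. That gene was Uqcrb, a small subunit near the ubiquinone site, at -0.50 ± 0.31 by the authors' deposited table (Cuffdiff q = 0.162). It has near-identical copies in 4 other annotated genes. The core proteins Uqcrc1 and Uqcrc2 were at -0.37 ± 0.31 and -0.35 ± 0.31, and Uqcrfs1, the Rieske iron-sulfur protein, at -0.37 ± 0.31, by the authors' deposited table. Cyc1, the cytochrome c1 that hands electrons to cytochrome c, lay near zero at -0.06 ± 0.31 by the authors' deposited table. The small subunits Uqcr10 and Uqcrh were at -0.35 and -0.14, and Uqcr11 and Uqcrq at 0.02 and 0.11 by the authors' deposited table. As deposited, 5 genes of this complex lay below -0.3 and 4 between -0.14 and 0.11. Neighbours in the order of all tested members differed by no more than their combined error in 80 of 80 pairs. With the GC trend described below removed, these groups overlapped, with Cyc1 at -0.37 and Uqcrc2 at -0.19. Cycs, the soluble cytochrome c, stood at -0.25 ± 0.32 by the authors' deposited table (Cuffdiff q = 0.596), with near-identical copies in 11 other annotated genes.

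Complex IV, cytochrome c oxidase, is the complex in which several subunits exist as isoforms from separate genes, some of them restricted to muscle, heart, lung or testis. Over its 14 tested genes the median was -0.27 by the authors' deposited table, with 1 called lower and 1 higher. The 11 subunits outside these tissue isoforms and Cox7a2l were all negative, from Cox7c at -0.85 to Cox7a2 at -0.02, with a median of -0.31, by the authors' deposited table. Cox6a1, the broadly expressed form of that subunit, was at -0.40 ± 0.31, Cox6c at -0.37 ± 0.32, Cox5b and Cox5a at -0.32 and -0.32, Ndufa4 at -0.31 and Cox4i1 at -0.30 by the authors' deposited table, none of them called. Cox7b, Cox6b1 and Cox8a lay at -0.22, -0.22 and -0.17, and Cox7a2l, a factor that joins complexes III and IV, at -0.25 by the authors' deposited table.

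Both tissue isoforms of complex IV that were tested had positive values. Cox6b2 was at 1.17 beside its broadly expressed partner Cox6b1 at -0.22 ± 0.31 by the authors' deposited table. Cox7a1, the heart and muscle isoform, was at 0.56 ± 1.30 beside Cox7a2 at -0.02 ± 0.31 by the authors' deposited table (Cuffdiff q = 0.826 for Cox7a1), an error too wide to place it. The other 5, Cox4i2, Cox6a2, Cox7b2, Cox8b and Cox8c, were not tested by the authors. The difference between Cox6b2 and Cox6b1 was not tested, and levels of the isoforms were not used, so no isoform ratio is given.

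Complex V, the ATP synthase, had a median of -0.20 over 15 tested genes by the authors' deposited table, 11 negative and 4 positive; 0 were called by Cuffdiff and 1 had an unadjusted p under 0.05. In the F1 head, the catalytic beta subunit Atp5b was at -0.34 ± 0.34 and its partner alpha, Atp5a1, at -0.29 ± 0.33, by the authors' deposited table. The epsilon subunit Atp5e was at -0.40 ± 0.32 and the gamma subunit of the rotor shaft, Atp5c1, at -0.20 ± 0.31, by the authors' deposited table. Among the membrane and stalk subunits the lowest were Atp5k at -0.46 ± 0.34 and Atp5l at -0.45 ± 0.32, both tied to the dimer interface of the enzyme, by the authors' deposited table (Cuffdiff q = 0.286 and 0.251). Atp5l has near-identical copies in 14 other annotated genes. Atp5o, the protein that joins the stalk to the head, was at -0.27, Atp5h at -0.18, Atp5f1 at -0.13 and Atp5j at 0.07, while Atp5j2 stood at 0.23 ± 0.32 by the authors' deposited table.

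The c subunits that form the rotor ring come from Atp5g1, Atp5g2 and Atp5g3, genes whose mature protein is the same. Their log2 fold changes were -0.03 ± 0.32, 0.27 ± 0.31 and -0.23 ± 0.31 by the authors' deposited table. Atp5g2 was thus the highest value of complex V and Atp5g3 below the complex median, a spread of both signs that stays within 1 error of zero for each gene (Cuffdiff q = 0.963, 0.560 and 0.630). Atp5g1 and Atp5g2 each had near-identical copies in 4 other annotated genes, and Atp5g3 in 0.

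Atp5d, the delta subunit of F1, and Ndufs7, a core subunit of complex I, were poorly resolved. Both were assigned the span from 79697305 to 80369637 on chromosome 10 (mm10). For each of them 52 other named entries overlap it, a count that includes the other gene of this pair. Their values of 0.10 ± 1.37 and -0.16 ± 3.74 by the authors' deposited table carry the widest implied errors of the tested members. In all, 13 members shared their span with another named entry. Of the 11 of these that were tested, 0 were called and 3, or 27.3%, had an unadjusted p under 0.05. Among the 70 tested members with a locus of their own, 3 were called, or 4.29%, and 8 had such a p, or 11.4%. Over all tested entries the shares were 7.63% and 19.2%. The counts are small, and no test between these groups was made. Of the 2 entries that are not subunits, Atp5s was at -0.49 ± 0.49 and Atp5sl at 0.11 ± 0.38 by the authors' deposited table.

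Set side by side, the medians of the complexes were -0.26, -0.20, -0.35, -0.27 and -0.20 for complexes I to V by the authors' deposited table. Negative values made up 91.7% of complex I, 77.8% of complex III, 85.7% of complex IV and 73.3% of complex V, and 4 of 4 genes of complex II. Subunits of a complex are not replicates, and no test of the difference between complexes was made. Their order changed with the processing: complex III was lowest as deposited, complex I was lowest at -0.30 with the GC trend removed, complex IV at -0.27 among members with a locus of their own, and complex III was highest at -0.13 with the GC and length trends removed.

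**Figure D2:**
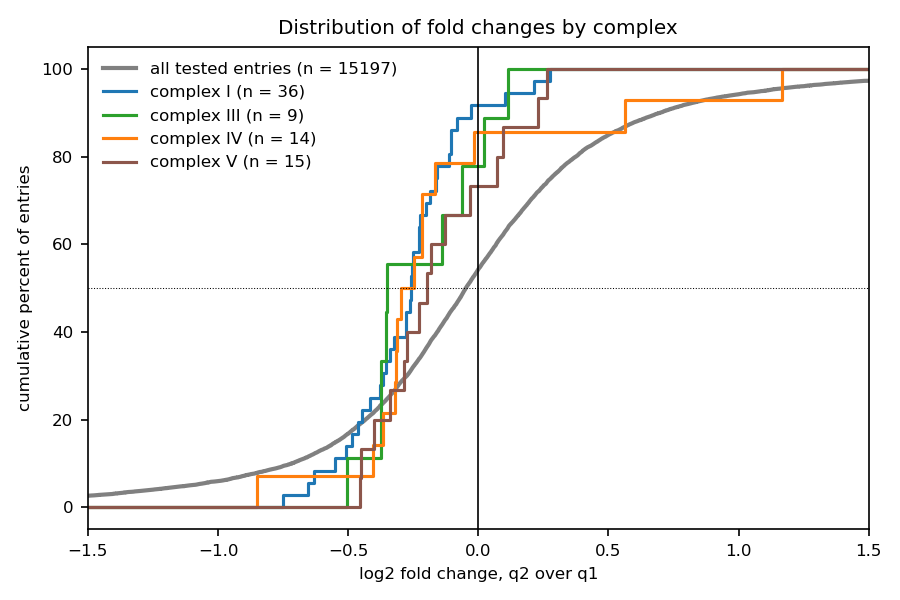
Cumulative percent of entries (y axis) by log2 fold change, q2 against q1, from the authors' deposited table (x axis), for complexes I, III, IV and V and for the 15197 tested entries with a finite fold change (grey); complex II, with 4 genes, is left out. The coloured curves reach 50% left of the grey one and rise more steeply, and complex IV has 2 genes on the far right, Cox7a1 and Cox6b2.

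Fold changes in this table moved with the GC content of the transcript. The members' values are given here also with that trend removed, and what the trend stems from was not tested. Across 11563 tested genes with a known GC content, the median log2 fold change went from -0.32 in the lowest decile of GC content to 0.30 in the highest. The members had a median GC content of 52.2%, near the 50.8% of the tested genes, and in the highest decile 7 members had a median of -0.11. With the GC trend removed the members' median was -0.28, with 66 of 81 negative. Length behaved otherwise: 77 of 81 members were shorter than the median tested gene, with a median of 683 bases against 2184, while the decile medians of all genes by length ran from -0.06 to -0.02. With the length trend removed the median of the members was -0.20, and with both removed -0.21 with 65 of 81 negative. Removal used 50 bins, finer than the deciles, and moved some short members by more than the deciles show. Cox7c (540 bases) went from -0.85 to -0.74 and Atp5l (544 bases) from -0.45 to -0.34. The long Cycs (3123 bases) went only from -0.25 to -0.24. Over the 81 members, which come from the same libraries, the correlation of fold change with GC content was 0.30 and with log2 length -0.02, as a description.

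**Figure D3:**
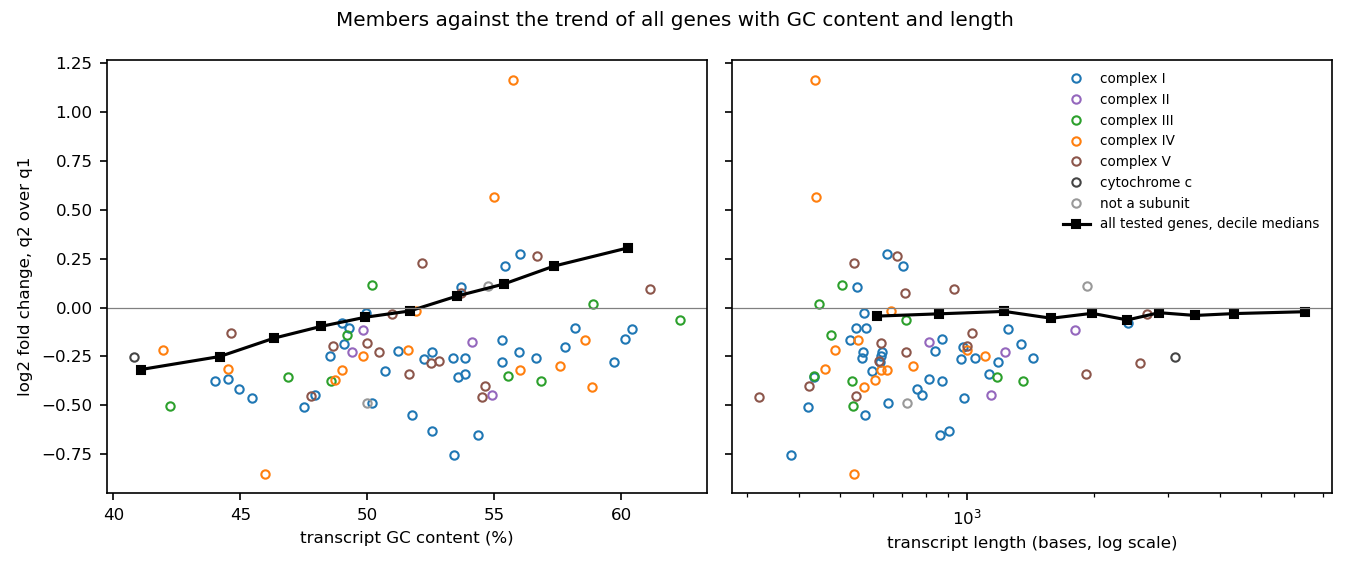
Log2 fold change, q2 against q1 (y axis), by transcript GC content (left, x axis in percent) and length (right, x axis in bases on a log scale) for the 81 tested members (circles, coloured by complex); black squares are medians of deciles of the 11563 tested genes. The squares climb from -0.32 to 0.30 with GC content and stay between -0.06 and -0.02 with length. Most members lie below them at middle and high GC content.

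Members with and without near-identical copies had like medians. The 37 tested members with such a copy had a median of -0.26 and the 44 without one -0.23, by the authors' deposited table. Among the latter 35 were negative, or 79.5%, against 91.9% of the former. In complex IV the 6 tested members without a copy, Cox4i1, Cox6b1, Cox6b2, Cox7a1, Cox7a2 and Cox8a, had a median of -0.092.

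Genes that build and regulate the chain were read from lists written out for this comparison. The lists of assembly factors and regulators of the complexes held 45 genes, with the subunit gene Usmg5 among them. Of these 45, 2 were called lower and 0 higher, 32 were negative and the median was -0.14 by the authors' deposited table. The share called was 4.44%, against 7.63% of the tested entries. Usmg5, which encodes a small ATP synthase subunit that the naming rule does not reach, was called lower at -1.10 ± 0.44 by the authors' deposited table (Cuffdiff q = 0.0244). Cox19, a copper-handling factor for complex IV, was called lower at -0.91 ± 0.40 by the authors' deposited table (Cuffdiff q = 0.0219). With the GC trend removed Usmg5 was at -0.85 and Cox19 at -0.83, and neither kept its call, with a Benjamini-Hochberg q of 0.0852 and 0.0619. The 14 complex I assembly factors had a median of -0.14 and 0 calls by Cuffdiff, where 0 also lay under an unadjusted p of 0.05; Ndufaf1 and Ndufaf4 were at -0.51 and -0.35 by the authors' deposited table. For complex II, Acn9, Sdhaf2 and Sdhaf1 were at -0.47, -0.44 and -0.02 by the authors' deposited table, none called. For complex III, 3 of 5 were negative, from Lyrm7 at -0.37 to Bcs1l at 0.20, by the authors' deposited table, none called. For complex IV, 11 of 18 were negative and 7 positive, with Cox14 highest at 0.44, by the authors' deposited table. The inhibitor of the ATP synthase, Atpif1, was at -0.10 ± 0.31 by the authors' deposited table.

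Of 13 regulators of mitochondrial genes, 1 was called higher and 1 lower by Cuffdiff, and the median was -0.01 by the authors' deposited table. The share called was 15.4% of this short list, against 7.63% of the tested entries. Pprc1, a coactivator related to PGC-1, was at 0.87 ± 0.31 (Cuffdiff q = 0.00292), and Tfb2m, a transcription factor of the mitochondrial genome, at -0.91 ± 0.38 (Cuffdiff q = 0.0180), by the authors' deposited table; Tfb2m lost its call with the GC trend removed (Benjamini-Hochberg q = 0.165). The factors Nrf1 and Yy1 stood at -0.01 ± 0.36 and -0.03 ± 0.35, and the coactivator Ppargc1a at -0.17 ± 0.33, by the authors' deposited table. Among 17 citric acid cycle and pyruvate dehydrogenase genes 0 were called by Cuffdiff, with a median of -0.17 and 12 negative, by the authors' deposited table. An unadjusted p under 0.05 was found for 3 of them, or 17.6%, against 19.2% of the tested entries. Idh2 lay at 0.49 ± 0.31 and Sucla2 at -0.46 ± 0.31 by the authors' deposited table. The subunits encoded in the mitochondrial genome were not analysed here.

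Other families of large complexes were set beside the members. Mitochondrial ribosomal proteins had a median of -0.08 over 73 tested genes, 60.3% negative, cytosolic ribosomal proteins -0.11 over 77 and 70.1%, and proteasome subunits -0.05 over 37 and 64.9%, by the authors' deposited table. Calls by Cuffdiff numbered 1, 3 and 0 in these families, or 1.37%, 3.90% and 0%, against 7.63% of the tested entries. Mrpl14, Rpl12 and Rpl8 were called higher and Rpl37a lower. Among the proteasome genes 0 had an unadjusted p under 0.05, against 19.2% of the tested entries. Transcripts of the cytosolic ribosomal proteins were about as short as those of the members, at a median of 696.5 bases. These families are given as a description, and no test between them was made.

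**Figure D4:**
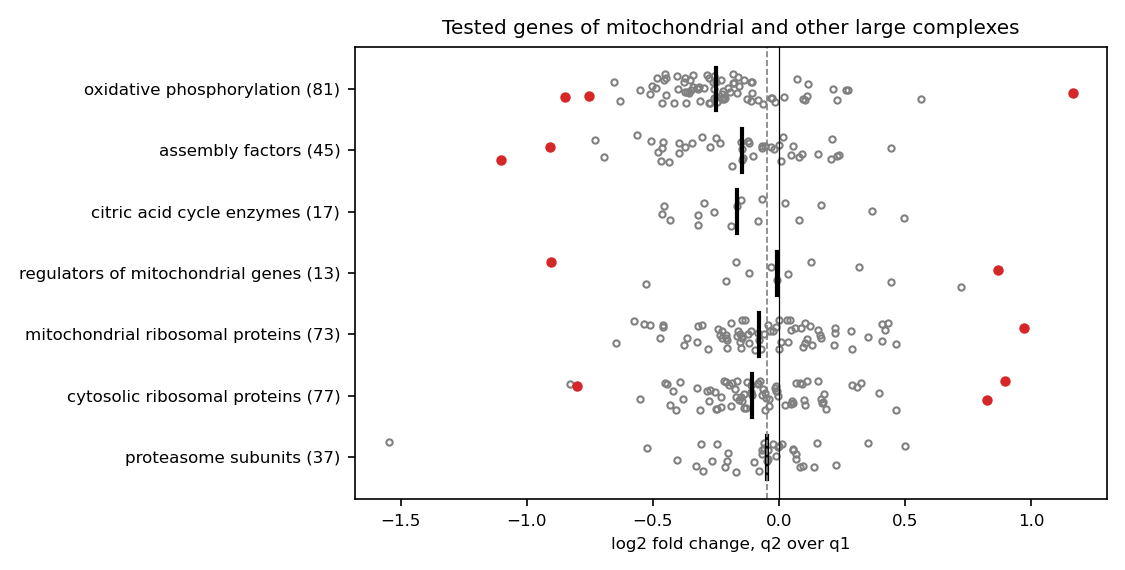
Log2 fold change, q2 against q1, from the authors' deposited table (x axis), for tested genes of 7 sets (y axis, number with a finite value in parentheses). Red points were called at a Cuffdiff q under 0.05, grey rings were not, black bars are medians and the dashed line is the median of the tested entries; the bar of oxidative phosphorylation stands at -0.25, those of the 3 other large families between -0.11 and -0.05.

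A feature that the symbols did not select was the promoter sequence. A RefSeq window of 300 bases, 250 before and 50 after the start site, was found for 71 of the 86 members. The NRF1 letters occurred in 16 of the 71 (22.5%), against 11.2% of the windows of 9090 tested genes and 4.78% of 27025 windows in all. The YY1 letters occurred in 15.5% of the members, against 7.59% of the tested genes and 6.48% of all windows. For ETS the shares were 21.1%, 18.7% and 9.12%, and for NF-Y 45.1%, 39.5% and 37.9%. The SP1 letters, in 42.3% of the members, were below the 67.1% of the tested genes and above the 35.9% of all windows. The forkhead letters were in 2 members, Cox7a2 and Atp5sl, or 2.82%, against 2.32% of the tested genes and 3.55% of all windows. By complex, the NRF1 letters were in 7 of 32 windows of complex I, 2 of 3 of complex II, 1 of 5 of complex III, 1 of 14 of complex IV and 5 of 14 of complex V. To show the letters themselves, the lowest members of each complex that hold them before the start site with 10 bases on either side, up to 2 per complex, are printed with the match in capitals (GRCm38.p6, minus strand, 5′ to 3′).

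Ndufa8, chr2:36049349-36049378: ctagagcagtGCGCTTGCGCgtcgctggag
Ndufa5, chr6:24527697-24527726: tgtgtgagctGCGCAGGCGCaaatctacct
Sdhd, chr9:50603909-50603938: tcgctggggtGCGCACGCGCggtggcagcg
Sdha, chr13:74350276-74350305: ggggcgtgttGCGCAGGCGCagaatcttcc
Cox6a1, chr5:115349056-115349085: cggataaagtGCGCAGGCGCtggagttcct
Atp5k, chr5:108434430-108434459: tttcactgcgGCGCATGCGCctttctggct
Atp5h, chr11:115420041-115420070: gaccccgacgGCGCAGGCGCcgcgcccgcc

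The matches began 30 bases before the start site in Ndufa8, 50 in Atp5k, 55 in Sdha and 79 in Sdhd, and 117, 141 and 190 in Cox6a1, Atp5h and Ndufa5. The 16 tested members with the NRF1 letters had a median log2 fold change of -0.26 and the 53 without -0.23; for YY1 the medians were -0.18 with and -0.25 without, and for ETS -0.22 and -0.25, by the authors' deposited table. No test of these differences was made, and a match is a description of the sequence, not of binding.

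**Figure D5:**
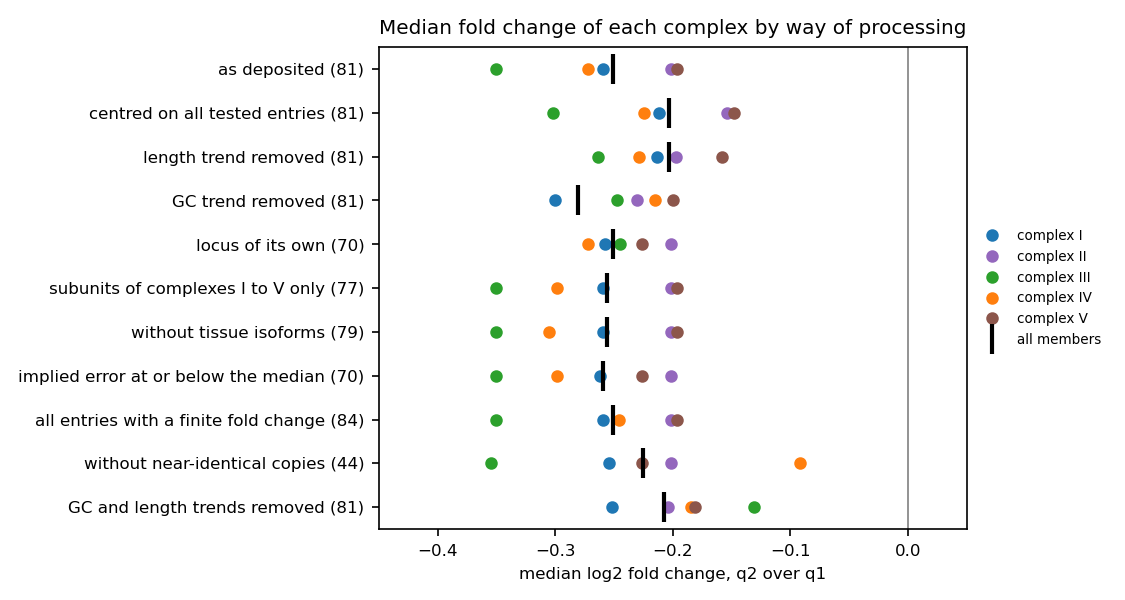
Median log2 fold change, q2 against q1 (x axis), for each complex (coloured points) and for the members together (black bars) under 11 ways of processing (y axis, number of members in parentheses). Every median lies below 0; complex III moves from -0.35 to -0.13 and complex IV from -0.27 to -0.092 in the settings farthest from the deposited values.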

How the data were processed

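Polyadenylated RNA of 4 libraries, 2 per group by their titles, was prepared for sequencing with a SOLiD kit, per the labels' protocols. The submitters' processing notes name mm10 as build and Cuffdiff, Cufflinks 2.2.1 and TopHat2 2.0.9 as tools. Not given in the sources used here are the annotation, the filters, strand and the handling of reads with several matches. The log2 fold changes, the test statistic (a score), the p-values and the q-values were deposited by the authors in 1 comparison table; per the file headers they compare q2 with q1. Recomputed q-values (Benjamini-Hochberg over 15315 tested entries) were checked against the deposited ones and differed by a relative 4.6e-06 at most; 11500 entries were not tested by the authors and 118 tested ones had no finite fold change. The 2 columns of per-condition values were not used, because q1 and q2 match no group in the labels. Depth per library and its precision are therefore unknown.

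The rule for the members uses symbols alone, but the gene group and the other lists were chosen with earlier results of these data known. Genes named were Foxp1, members called or with an unadjusted p under 0.05, the 2 highest and 2 lowest of each complex, core subunits, isoform families, untested members, and the called or leading genes of the other lists; 1 member that the rule takes is counted but not reported here by name. Length and GC content were medians over protein-coding transcripts of GENCODE M21 (GRCm38), matched by symbol for 95.6% of tested genes. Trends were medians in 50 bins; after subtraction the statistic was rescaled by the implied error, p was read from the authors' relation of p to statistic and adjusted by Benjamini-Hochberg. On simulated data only the removal of a GC trend was tested, with p-values from a normal distribution. Removal of the length trend and the reading of p from the authors' relation were not tested there. Near-identical copies were other annotated genes with a transcript of at least 90% identity over 50% of the coding sequence (BLAST 2.17.0). Promoters came from RefSeq on GRCm38.p6. Python 3.11.15, numpy 2.4.6, pandas 2.3.3, scipy 1.17.1 and matplotlib 3.10.9 were used. Alternatives were other q thresholds, normal p-values, centring, trend removal and narrower memberships.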

Additional observations from a re-analysis of the deposited data

How the results depend on the processing

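The members' median log2 fold change stayed below zero under each of the 10 alternatives that bear on it, from -0.28 with the GC trend removed to -0.20 with centring on the tested entries. The number called was less stable: 3 in the authors' deposited table, 4 at a Cuffdiff q under 0.1, 0 at a Cuffdiff q under 0.01 and 0 with normal p-values of the statistic (11 at an unadjusted Cuffdiff p under 0.05), and 1 among the 70 members with an implied error at or below the median. With normal p-values 424 of all tested entries were called. Of the 15315 tested entries, 1168 were called as deposited, 966 with the GC trend removed, 1230 with the length trend removed and 950 with both. For the other q thresholds and the limit on the implied error, no such count over the tested entries is given. Removal of the GC trend gave 3 members, all lower, and of the length trend 2, as Cox7c went to a Benjamini-Hochberg adjusted p of 0.0988. With both trends removed, an alternative chosen after seeing the data, Ndufa6 went to 0.0798 and the median of complex III to -0.13. Leaving out members with near-identical copies, also chosen after seeing the data, left 35 negative of 44 and a complex IV median of -0.092; fewer members enter there. The causes of the other changes were not tested.

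No paired analysis was possible because the table holds no values per library; for the same reason no library was left out in turn. Directions are not assigned to an shRNA, and errors rest on the authors' statistic.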
